A study of Homo sapiens with 32 samples.

Results

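The nuclear NDUF genes encode most subunits of complex I, the NADH dehydrogenase of the respiratory chain, and several factors that help to build it. Their counts were examined in HEK293 cells, a human cell line derived from embryonic kidney, after incubation with 4-thiouracil for 5, 15 or 30 min and in cells of the 0 min time. All symbols that start with NDUFA, NDUFB, NDUFC, NDUFS, NDUFV or NDUFAF were taken, which gave 50 of the 32738 gene entries, and the 44 with at least 50 counts summed over the 32 libraries were kept. These 44 hold 35 subunits, 7 assembly factors (NDUFAF1 to NDUFAF7), NDUFA4, and the antisense transcript NDUFB2-AS1. Just inside the minimum were NDUFA7 with 57 counts and NDUFB2-AS1 with 62. Just outside it were NDUFA9 with 38 counts, NDUFA13 with 19 and NDUFA4L2 with 6. The remaining entries under the minimum were a second NDUFA7 entry with 1 count, a second NDUFB8 entry with 0 and the read-through NDUFC2-KCTD14 with 0.

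Each of the 4 times had 2 cultures, which the labels call biological replicates, and each culture was counted in 4 libraries from 2 cDNA preparations. 4-Thiouracil is a sulphur-bearing uracil that marks newly made RNA. Per the labels the RNA was polyadenylated and all groups are the same cell line; what was given at 0 min, and whether marked RNA was enriched, they do not say. Each value is thus a share of the RNA that was counted, and fewer cells with an RNA and less of it per cell cannot be told apart. Counts per culture, summed over its 4 libraries, ranged from 776871 to 1396056, and single libraries held 188686 to 381471. Of 8 HEK293 markers 7 were in the table, all with counts, and summed to 495 to 690 CPM (counts scaled to a common total) per culture. Immune markers summed to at most 4.63 CPM, with PTPRC, CD3E and LYZ at 0.

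Complex I takes electrons from NADH and passes them along iron-sulphur clusters to ubiquinone while it pumps protons across the inner mitochondrial membrane. Its core subunits carry the cofactors or the proton channels. The core subunits of the peripheral arm, which reaches into the matrix, are nuclear genes, and those of the membrane arm are encoded in mitochondrial DNA. Accessory subunits surround this core, and most are needed for its assembly and stability. Assembly factors bind intermediates, modify subunits or insert clusters, and are not part of the finished enzyme. Nuclear respiratory factor 1, encoded by NRF1, is known for its sites in promoters of respiratory chain genes.

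The 250 bases upstream of the annotated start are shown for 4 example genes. NDUFB4 and NDUFA12 are subunits that fell and hold an NRF1 match. NDUFAF4 is an assembly factor that fell alike, and NDUFAF7 is one that did not pass the test at any time. Most subunit promoters searched held no match, and none of those is shown. The sequences shown are from RefSeq, build GRCh38.p14, 5′ to 3′ on the gene's own strand. They come from chr3:120596086-120596335 (plus strand) for NDUFB4, chr12:95003698-95003947 (minus strand) for NDUFA12, chr6:96897892-96898141 (minus strand) for NDUFAF4 and chr2:37231408-37231657 (plus strand) for NDUFAF7. Capitals mark matches to 9 letters of the NRF1 motif, GCGCANGCG, on either strand; the first match of NDUFB4 is nearly palindromic and was found on both strands, which overlap.
NDUFB4: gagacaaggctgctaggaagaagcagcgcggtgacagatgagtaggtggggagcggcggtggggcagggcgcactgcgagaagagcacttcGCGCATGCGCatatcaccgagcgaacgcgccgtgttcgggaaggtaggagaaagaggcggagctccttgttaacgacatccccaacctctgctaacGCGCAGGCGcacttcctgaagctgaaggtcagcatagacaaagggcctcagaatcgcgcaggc
NDUFA12: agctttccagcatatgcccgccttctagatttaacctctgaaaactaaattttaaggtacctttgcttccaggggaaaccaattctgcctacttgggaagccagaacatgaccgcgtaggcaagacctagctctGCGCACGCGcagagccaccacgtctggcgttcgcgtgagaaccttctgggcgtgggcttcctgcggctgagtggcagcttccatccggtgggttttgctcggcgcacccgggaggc
NDUFAF4: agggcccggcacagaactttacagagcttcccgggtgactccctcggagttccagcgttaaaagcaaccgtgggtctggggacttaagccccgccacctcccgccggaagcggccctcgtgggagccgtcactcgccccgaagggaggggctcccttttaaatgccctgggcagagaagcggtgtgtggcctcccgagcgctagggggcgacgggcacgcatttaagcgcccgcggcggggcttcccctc
NDUFAF7: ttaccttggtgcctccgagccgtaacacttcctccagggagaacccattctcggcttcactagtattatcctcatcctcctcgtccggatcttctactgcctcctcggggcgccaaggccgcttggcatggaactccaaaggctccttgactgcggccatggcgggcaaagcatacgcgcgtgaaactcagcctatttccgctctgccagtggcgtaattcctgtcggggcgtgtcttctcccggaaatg

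Promoter entries were found for 37 of the 44 genes. Searched on both strands, these letters were present upstream of 7 of 30 subunit genes (23.3%: NDUFA3, NDUFA11, NDUFA12, NDUFAB1, NDUFB4, NDUFS6 and NDUFS7), 0 of 6 assembly factor genes and 7.02% of all 27305 promoters of the same length. With a further C required after them the counts were 4 of 30 (13.3%), 0 of 6 and 5.53%. An ETS motif of the kind bound by GABPA, CCGGAAGT, was in 1 of the 30 subunit promoters (3.33%), that of NDUFS1, in 0 of 6 assembly factor promoters and in 3.64% of all promoters. The YY1 motif AAGATGGCG was in 0 of both groups and 0.641% of all promoters, and the TATA letters TATAAA were in 2 subunit promoters (6.67%), 0 assembly factor promoters and 11.1% of all. Subunits with an NRF1 match had log2 fold changes of -2.63 (NDUFA11) to -0.85 (NDUFS6) at 30 against 0 min, and NDUFS6 was the least changed of all 35. All 35 subunits fell in this comparison, with or without a match.

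Nearly all subunit genes were lower at every later time than at 0 min, while the assembly factors split into genes that fell, genes that did not pass the test and 1 that rose. At 5 against 0 min 33 of 35 subunits fell and 0 rose (edgeR's quasi-likelihood test, adjusted p under 0.05), where 26% of the 10439 genes tested were lower and 28.7% higher. At 15 against 0 min 34 of 35 fell, beside 24.6% lower and 29.8% higher over all genes. At 30 against 0 min all 35 fell, beside 23.8% lower and 32.1% higher (55.9% in either direction). Of the 7 assembly factors 4, 3 and 5 fell at 5, 15 and 30 min and 1 rose at each, all against the same 0 min cultures. All 44 genes passed the filter on low counts, so none was left untested.

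The median log2 fold change of the subunits against 0 min was -1.44, -1.40 and -2.19 at 5, 15 and 30 min. The median over all genes tested was 0.10, 0.19 and 0.35 at these times, so relative to it the subunits stood at -1.54, -1.59 and -2.53. Assembly factors had medians of -1.06, -0.54 and -0.75, or -1.17, -0.73 and -1.10 relative to all genes. With scaling by total counts alone the median of all genes was 0.83, 0.96 and 1.22. The medians were then -0.70, -0.63 and -1.30 for subunits and -0.33, 0.24 and 0.13 for assembly factors. Relative to all genes they were -1.54, -1.59 and -2.53 for subunits and -1.16, -0.72 and -1.10 for assembly factors. A change of scaling shifts all genes by about the same amount, so these relative values could not move and are no check of the scaling. Under this scaling 13.9%, 12.5% and 12.8% of all genes were lower at 5, 15 and 30 min, and 42.7%, 46.9% and 53.9% higher. Of the subunits 23, 23 and 32 fell and 0 rose, and of the assembly factors 2, 2 and 3 fell and 3, 2 and 2 rose. The highest subunit value was then 0.28 at 5 min, 0.29 at 15 min and 0.03 at 30 min, and these did not pass the test. The share of all calls that were higher was 52.5%, 54.7% and 57.4% with TMM and 75.5%, 78.9% and 80.9% with total counts. The 2 groups also differed in their spread over genes: the SD of the log2 fold change was 0.40, 0.41 and 0.43 over subunits and 1.30, 1.13 and 1.28 over assembly factors at 5, 15 and 30 min.

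**Figure D1:**
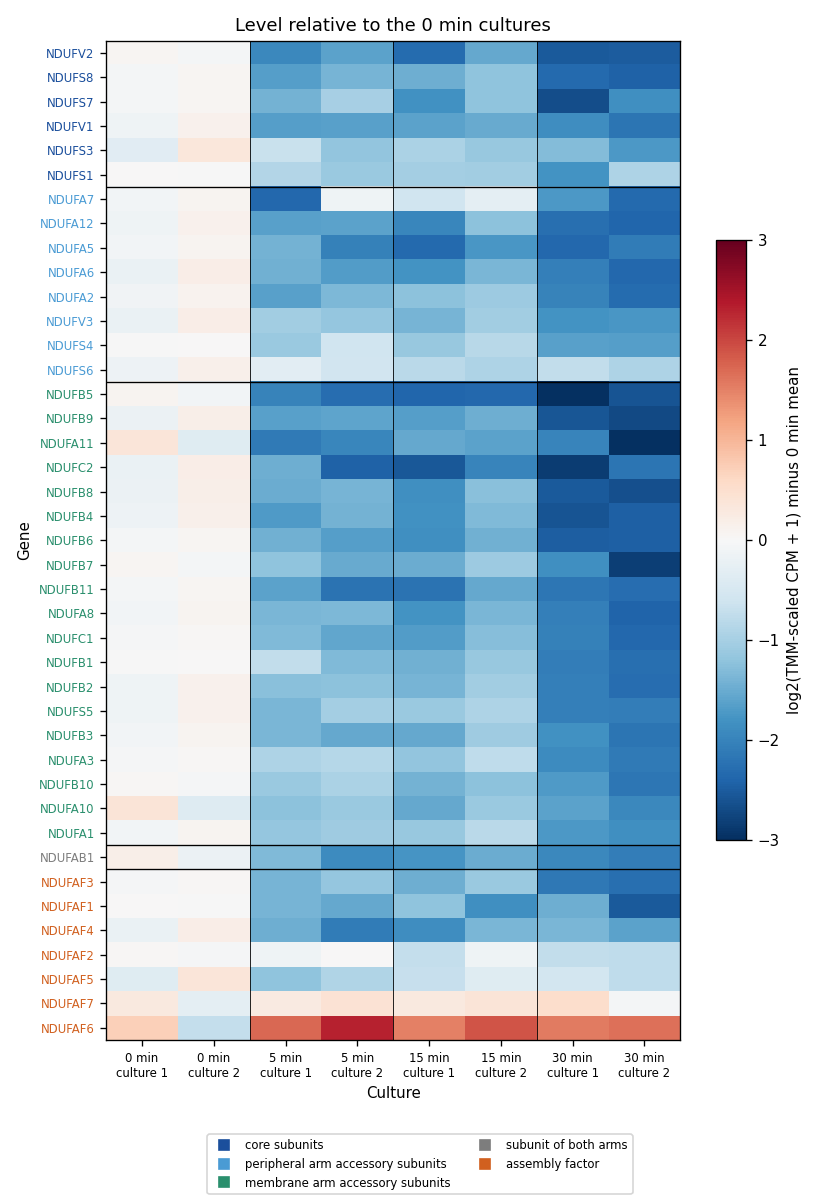
Level of 34 of the 35 subunits and 7 assembly factors in each culture, as log2 of the TMM-scaled CPM plus 1 minus the mean of the 2 cultures at 0 min (colour); rows are genes grouped by role and columns are cultures in order of time. The subunit rows are blue in all later cultures, with the palest at NDUFS6 and NDUFA7, while NDUFAF6 is red and NDUFAF2 and NDUFAF7 stay near white at 5 min.

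In level, both cultures of each later time lay below both 0 min cultures for 35 of 35 subunits at 5, 15 and 30 min, where 35%, 33.9% and 31.8% of all genes tested did so. For 1 gene, 2 cultures a side allow no exact permutation p below 0.333, so these separations carry no test of their own. The order of the subunits among themselves changed little: Spearman's rho between their mean levels at any 2 times was 0.955 to 0.99 over 35 genes, which share their libraries.

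Among the 7 nuclear core subunits, all fell at every time against 0 min. NDUFV1, which holds the flavin that takes electrons from NADH, had 196 and 232 TMM-scaled CPM at 0 min, 67.3 and 67.8 at 5 min, 69.2 and 73.9 at 15 min, and 58.3 and 46.1 at 30 min. Every later culture lay below both 0 min cultures, and the log2 fold change at 30 against 0 min was -2.03 ± 0.22 (SE; adjusted p = 1.64e-09). NDUFV2, its partner with an iron-sulphur cluster, had 416 and 388 CPM at 0 min, 105 and 131 at 5 min, 80.8 and 139 at 15 min, and 69.1 and 70.1 at 30 min. This was the core gene that fell most at 30 min, by 2.53 ± 0.21 on the log2 scale (adjusted p = 5.67e-12).

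NDUFS1, the large subunit that carries further clusters of the chain, had 202 and 201 CPM at 0 min, 109 and 93.3 at 5 min, 99.6 and 97.1 at 15 min, and 57.7 and 106 at 30 min. Its 2 cultures at 30 min stood apart, but both stayed below the 0 min level, with a log2 fold change of -1.30 ± 0.23 (adjusted p = 1.05e-05). NDUFS3, a core subunit without a cluster of its own, changed by -0.97 ± 0.29, -1.07 ± 0.28 and -1.55 ± 0.29 at 5, 15 and 30 min. With scaling by total counts alone the calls of NDUFS1 were lost at all 3 times and those of NDUFS3 at 5 and 15 min. Leaving out culture 2 at 0 min ended the NDUFS3 call at 5 min (-0.60) and at 15 min (-0.71), and leaving out culture 2 at 5 min ended the first (-0.70).

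NDUFS7 carries the last cluster before ubiquinone and NDUFS8 holds a pair of clusters ahead of it. NDUFS8 had 868 and 951 CPM at 0 min, 287 and 347 at 5 min, 326 and 393 at 15 min, and 179 and 169 at 30 min. The 4 times thus formed 3 levels for NDUFS8, with 5 and 15 min overlapping and 30 min below both. NDUFS7 had 74.9 and 80.3 CPM at 0 min, 28.3 and 38.2 at 5 min, 21.3 and 32.8 at 15 min, and 11.4 and 20.9 at 30 min. Its changes were -1.19 ± 0.34, -1.52 ± 0.34 and -2.26 ± 0.36, and its SE was larger than that of NDUFS8 (0.18 at each time), with 53 counts in both cultures at 30 min and 573 for NDUFS8. Its calls at 5 and 15 min were lost with scaling by total counts alone (-0.46 and -0.75).

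Accessory subunits fell by similar amounts in both arms. Against 0 min the median log2 fold change at 5, 15 and 30 min was -1.44, -1.46 and -2.22 over 19 membrane arm subunits, -1.30, -1.19 and -2.19 over 8 peripheral arm accessory subunits and -1.19, -1.34 and -2.03 over the 7 core genes. All 19 membrane arm subunits fell at each time. The lowest values belonged to this arm. NDUFB5, a subunit of the distal membrane arm, had 313 and 276 CPM at 0 min, 72 and 59.3 at 5 min, 55.6 and 56.8 at 15 min, and 28.2 and 48 at 30 min. No later culture came near the 0 min level, and the log2 fold changes were -2.18 ± 0.23, -2.39 ± 0.23 and -2.95 ± 0.24.

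NDUFB9, also of the distal arm, had 1453 and 1884 CPM at 0 min, 530 and 552 at 5 min, 529 and 600 at 15 min, and 278 and 253 at 30 min. It was at -1.62 ± 0.18, -1.56 ± 0.18 and -2.65 ± 0.19 against 0 min (adjusted p = 2.73e-13 at 30 min). NDUFB8, often used as a blot marker of assembled complex I, had 1207 and 1538 CPM at 0 min, 483 and 515 at 5 min, 383 and 569 at 15 min, and 235 and 219 at 30 min. Its symbol stands on a second entry with no counts, and its change at 30 min was -2.59 ± 0.20. NDUFA11 and NDUFC2, membrane arm subunits with few counts (33 and 29 in both cultures at 30 min), fell by 2.14 ± 0.45 and 2.01 ± 0.48 at 5 min, and by 2.63 ± 0.44 and 2.61 ± 0.48 at 30 min.

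NDUFS6, a zinc-binding subunit of the peripheral arm, and NDUFA7 were the exceptions. Both fall outside the naming rule and were chosen after their values were seen. NDUFS6 had 174 and 216 CPM at 0 min, 156 and 129 at 5 min, 111 and 102 at 15 min, and 115 and 101 at 30 min. Later cultures did not overlap those of 0 min, yet the change at 5 min, -0.46 ± 0.20, did not pass the test (adjusted p = 0.0544). It passed at 15 min (-0.87 ± 0.20) and 30 min (-0.85 ± 0.20), and with scaling by total counts alone the 30 min value was 0.03. NDUFA7 had 8 and 7 counts at 0 min, 1 and 13 at 5 min, 10 and 12 at 15 min, and 4 and 2 at 30 min. At this depth its changes at 5 and 15 min (-0.82 ± 0.88 and -0.47 ± 0.84) were not detectable, and the call at 30 min (-2.42 ± 0.97, adjusted p = 0.0337) was lost when either culture of 0, 15 or 30 min was left out and with scaling by total counts alone (-1.56).

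NDUFAB1, the mitochondrial acyl carrier protein found in both arms, had 1018 and 806 CPM at 0 min, 359 and 244 at 5 min, 263 and 320 at 15 min, and 237 and 214 at 30 min. It fell by 1.61 ± 0.19, 1.65 ± 0.19 and 2.02 ± 0.19. NDUFA4 carries an NDUF name but is now counted to complex IV. It had 2363 and 2482 CPM at 0 min, 812 and 896 at 5 min, 787 and 983 at 15 min, and 489 and 468 at 30 min. Its log2 fold changes of -1.50 ± 0.18, -1.45 ± 0.18 and -2.34 ± 0.19 lay within the range of the complex I subunits. Over 11 other complex IV subunits the median was -1.34, -1.36 and -2.12, and 10, 11 and 11 of them fell, where 26%, 24.6% and 23.8% of all genes did. Under scaling by total counts alone these medians were -0.60, -0.59 and -1.24, and 10, 8 and 11 fell, where 13.9%, 12.5% and 12.8% of all genes did.

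The assembly factors did not move as a group. NDUFAF3 and NDUFAF4 bind each other and act early, on the part of the enzyme that will hold the ubiquinone site. NDUFAF3 had 879 and 934 CPM at 0 min, 345 and 402 at 5 min, 328 and 420 at 15 min, and 205 and 189 at 30 min. It fell by 1.27 ± 0.18, 1.28 ± 0.18 and 2.20 ± 0.18 on the log2 scale (adjusted p = 4.2e-12 at 30 min). NDUFAF4 had 552 and 731 CPM at 0 min, 229 and 148 at 5 min, 174 and 243 at 15 min, and 243 and 209 at 30 min. All later cultures of NDUFAF4 overlapped each other and lay below 0 min, with changes of -1.78 ± 0.21, -1.62 ± 0.20 and -1.50 ± 0.20. Where NDUFAF3 was lower at 30 than at 15 min (-0.92 ± 0.18, adjusted p = 0.00131), NDUFAF4 was at 0.12 ± 0.20 (adjusted p = 0.853), and the difference between the partners was not tested. Without culture 2 at 15 min or culture 2 at 30 min this call of NDUFAF3 was lost (-0.71 and -0.87).

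NDUFAF1 belongs, with ECSIT, ACAD9 and TMEM126B, to a complex that assembles the membrane arm. It had 61.6 and 60.2 CPM at 0 min, 22.4 and 20.5 at 5 min, 25.9 and 16.4 at 15 min, and 21.6 and 9.84 at 30 min. It fell at all 3 times (-1.51 ± 0.40, -1.52 ± 0.39 and -1.94 ± 0.40), with 48, 64 and 52 counts in the later pairs of cultures and 90 at 0 min. Its calls at 5 and 15 min were lost with scaling by total counts alone (-0.78 and -0.74).

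NDUFAF2 is a paralog of the subunit NDUFA12 and occupies its place in an assembly intermediate. It had 155 and 150 CPM at 0 min, 140 and 154 at 5 min, 91.8 and 139 at 15 min, and 91.3 and 89.8 at 30 min. The 5 and 0 min cultures overlapped, at a log2 fold change of -0.04 ± 0.21 (adjusted p = 0.877), and it was at -0.40 ± 0.21 at 15 min (adjusted p = 0.11). The gene passed at 30 min, lower by 0.75 ± 0.22 on the log2 scale (adjusted p = 0.00364). With scaling by total counts alone the values were 0.69 at 5 min and 0.13 at 30 min, and with RLE size factors the 15 min value of -0.50 passed, as did that without culture 2 at 15 min (-0.70). NDUFA12 itself had 433 and 441 CPM at 5 min and 1220 and 1480 at 0 min, and its changes were -1.63 ± 0.20, -1.56 ± 0.20 and -2.33 ± 0.20 at 5, 15 and 30 min. The difference between the paralogs was not tested.

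NDUFAF5 and NDUFAF7 modify arginines of core subunits, NDUFAF5 by hydroxylating NDUFS7 and NDUFAF7 as a methyltransferase. NDUFAF5 had 65.3 and 107 CPM at 0 min, 35.4 and 44.5 at 5 min, 51.7 and 65 at 15 min, and 56.5 and 49.2 at 30 min. It fell at 5 min (-1.06 ± 0.30, adjusted p = 0.00279) and at 30 min (-0.68 ± 0.28, adjusted p = 0.037) and was at -0.54 ± 0.28 at 15 min (adjusted p = 0.0997). Its 0 min cultures differed widely. The call at 5 min was lost without culture 2 at 0 min (-0.69) and with scaling by total counts alone (-0.33), and that at 30 min without any one of 4 cultures: culture 2 at 0 min (-0.30), culture 2 at 15 min (-0.63), culture 1 at 30 min (-0.79) and culture 2 at 30 min (-0.59). The 30 min call was also lost with no filter on low counts (-0.57), and its value turned to 0.20 with scaling by total counts alone. Without culture 1 at 0 min the 15 min value passed (-0.87).

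NDUFAF7 had 54.4 and 35.5 CPM at 0 min, 53.1 and 60.1 at 5 min, 54.3 and 58.1 at 15 min, and 63.7 and 42.4 at 30 min. The cultures overlapped between 0 min and each later time, and the changes of 0.32 ± 0.31, 0.30 ± 0.30 and 0.22 ± 0.30 did not pass the test (adjusted p = 0.401, 0.417 and 0.557). They were 1.05, 1.07 and 1.09 and passed with scaling by total counts alone. The gene overlaps CEBPZ and PRKD3 on the opposite strand in GENCODE 29, and whether counting used strand is unknown here. PRKD3 had 110 and 120 CPM at 0 min, 447 and 416 at 5 min, 362 and 289 at 15 min, and 322 and 302 at 30 min, and CEBPZ had 381 and 307 at 0 min, 268 and 216 at 5 min, 240 and 217 at 15 min, and 236 and 275 at 30 min. On this TMM-scaled level PRKD3 was higher and CEBPZ lower in all later cultures, and their part in the NDUFAF7 values was not tested.

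NDUFAF6, a factor of the phytoene synthase family that acts early, with the mitochondrial ND1 subunit, was the assembly factor that rose. It had 26.6 and 9.27 CPM at 0 min (22 and 6 counts), 54.3 and 82.7 at 5 min (46 and 117 counts), 47.2 and 61.5 at 15 min (73 and 90 counts), and 48.6 and 52.3 at 30 min (81 and 85 counts). All 6 later cultures lay above both 0 min cultures. The log2 fold change was 1.89 ± 0.38 at 5 min (adjusted p = 5.84e-05), 1.53 ± 0.38 at 15 min (adjusted p = 0.000832) and 1.43 ± 0.38 at 30 min (adjusted p = 0.00168). Its size depended on which 0 min culture was kept: without culture 2 the values were 1.39, 1.03 and 0.92, and the 30 min value no longer passed (adjusted p = 0.0517, in a range of 8.98e-07 to 0.0517 over the 15 alternatives), and without culture 1 they were 2.90, 2.54 and 2.43. NDUFAF6 overlaps CCNE2 and TP53INP1 on the opposite strand. CCNE2 ran the other way, with 138 and 94.2 CPM at 0 min, 60.2 and 45.2 at 5 min, 42.7 and 45.8 at 15 min, and 80.5 and 70.7 at 30 min, but reads of the partners cannot be told apart where strand was not used, and their part in the result was not tested.

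**Figure D2:**
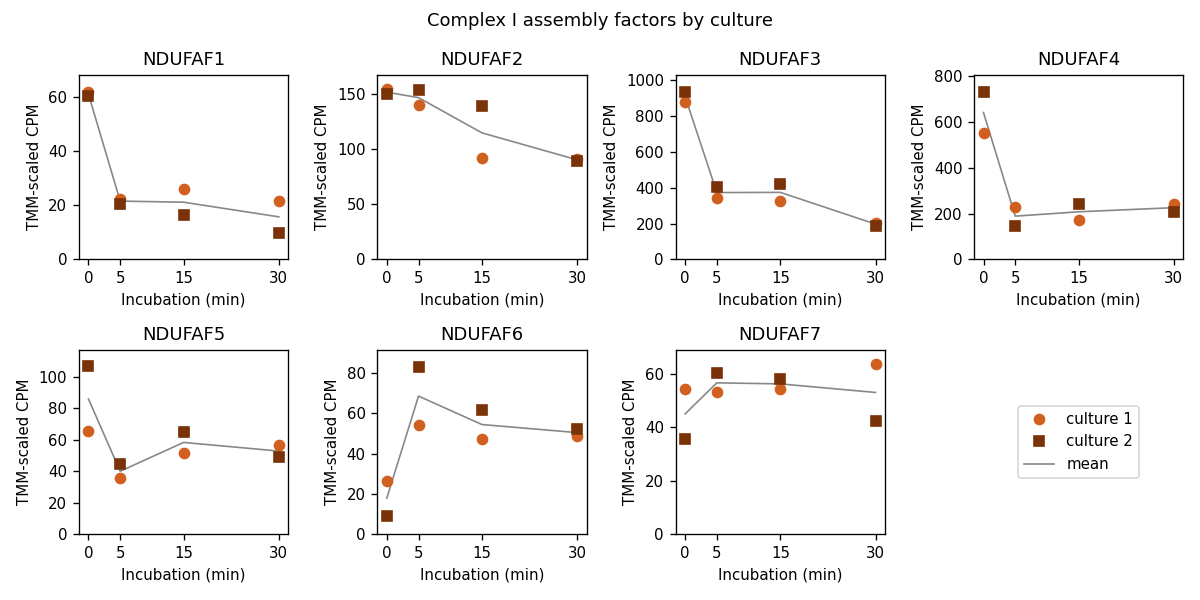
TMM-scaled CPM (vertical axis, from 0) of the 7 assembly factors by incubation time in min (horizontal axis), with a circle for culture 1, a square for culture 2 and a line through the means. NDUFAF1, NDUFAF3 and NDUFAF4 drop at 5 min, NDUFAF2 declines late, NDUFAF7 overlaps throughout, and NDUFAF6 sits above both 0 min cultures at every later time.

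Assembly factors made up a larger part of the complex I counts at later times. Subunits took 1.56% and 1.65% of all counts in the 0 min cultures, 1.04% and 1.01% at 5 min, 0.954% and 1.14% at 15 min, and 0.676% and 0.629% at 30 min. Assembly factors took 0.122% and 0.128% at 0 min, 0.0959% and 0.0994% at 5 min, 0.0892% and 0.109% at 15 min, and 0.087% and 0.0776% at 30 min. For each 100 subunit counts there were 7.8 and 7.8 assembly factor counts at 0 min, 9.25 and 9.81 at 5 min, 9.34 and 9.51 at 15 min, and 12.9 and 12.3 at 30 min. This ratio needs no scaling between cultures. Both cultures of every later time lay above both at 0 min, and those of 5 and 15 min overlapped. Without NDUFAF3 and NDUFAF4, which hold most assembly factor counts, it was 1.58 and 1.39 at 0 min, 3.22 and 3.89 at 5 min, 3.28 and 3.22 at 15 min, and 4.97 and 4.68 at 30 min.

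The mitochondrially encoded core subunits are transcribed inside the organelle by its own polymerase. MT-ND6, which lies on the other strand of mitochondrial DNA from the rest, was listed at 0 in every culture and was not tested. For each 100 nuclear subunit counts there were 96 and 93 mitochondrial subunit counts at 0 min, 127 and 112 at 5 min, 150 and 137 at 15 min, and 312 and 316 at 30 min, with no overlap between any 2 times. Of the 6 genes tested 4, 4 and 3 fell at 5, 15 and 30 against 0 min, and 0, 0 and 1 rose, where 26%, 24.6% and 23.8% of all genes were lower and 28.7%, 29.8% and 32.1% higher. With scaling by total counts alone 13.9%, 12.5% and 12.8% of all genes were lower and 42.7%, 46.9% and 53.9% higher. Of the 6 genes 3, 1 and 0 then fell and 2, 2 and 4 rose, beside 4, 4 and 3 that fell and 0, 0 and 1 that rose with TMM. The gene that rose was MT-ND2 (0.54 ± 0.20, adjusted p = 0.0228), a call lost without culture 1 at 0 min (0.43) or culture 1 at 30 min (0.27) and with RLE size factors (0.37), while with scaling by total counts alone it rose at all 3 times (0.61, 0.41 and 1.42). Over the 6 genes the median was -1.18, -0.71 and -0.37, which turned to 0.07 at 15 min and 0.52 at 30 min with scaling by total counts alone. MT-ND2 had 2327 and 1640 CPM at 30 min against 1006 and 1099 at 15 min, and MT-ND1 had 4895 and 4810 CPM at 30 min against 2780 and 3449 at 15 min. Both were higher at 30 min, with log2 fold changes of 0.91 ± 0.20 (adjusted p = 0.00428) and 0.64 ± 0.19 (adjusted p = 0.0464). The MT-ND2 call was lost without culture 1 at 30 min (0.64), and the MT-ND1 call passed in 6 of 15 alternatives.

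**Figure D3:**
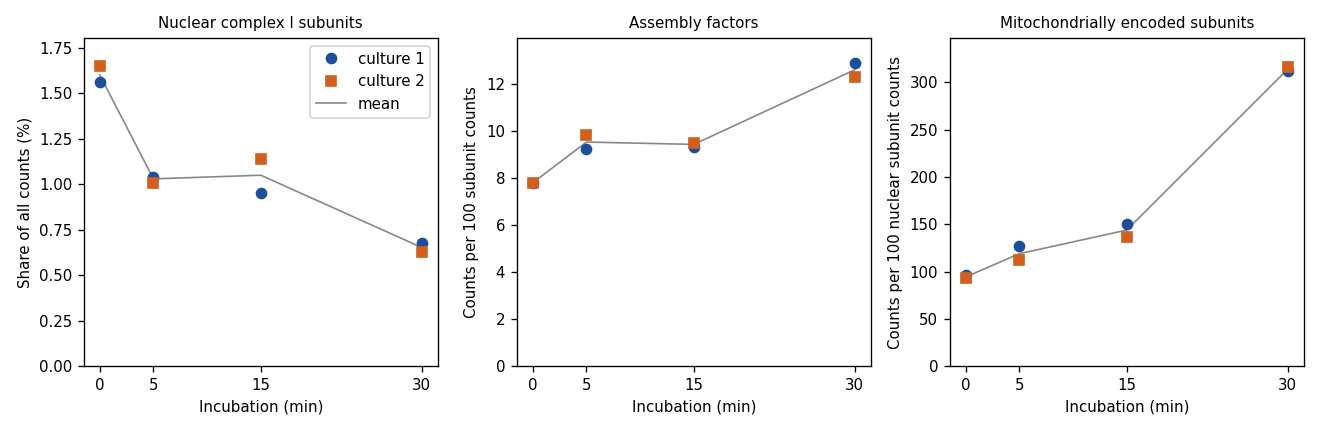
Summed counts by incubation time in min, with a circle for culture 1, a square for culture 2 and a line through the means: the share of all counts in nuclear subunits in percent (left), assembly factor counts per 100 subunit counts (middle) and mitochondrially encoded subunit counts per 100 nuclear subunit counts (right). The subunit share is 0.676% and 0.629% at 30 min, its lowest, while both ratios are at their highest there.

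Between 5 and 15 min none of the 44 genes passed. At 15 against 5 min 0 of 44 passed edgeR's quasi-likelihood test, where 1.55% of all genes did. DESeq2 also called 0, and 1 of the 44 had an unadjusted p under 0.05, against 13.1% of all genes. Subunit log2 fold changes ran from -0.40 to 0.48 with a median of -0.04, and those of assembly factors from -0.36 to 0.52 with a median of -0.01.

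A second drop lay between 15 and 30 min. At 30 against 15 min 19 of the 44 genes passed, all lower, where 5.04% of all genes passed in either direction, 2.78% lower and 2.26% higher. They were 17 subunits, NDUFA4 and NDUFAF3. Of the membrane arm subunits 13 of 19 passed, of the peripheral arm accessory subunits 3 of 8 (NDUFA2, NDUFA12 and NDUFS4) and of the core subunits 1 of 7 (NDUFS8). The 13 were NDUFA1, NDUFA3, NDUFA8, NDUFB1, NDUFB2, NDUFB3, NDUFB4, NDUFB6, NDUFB7, NDUFB8, NDUFB9, NDUFC1 and NDUFS5. Whether the groups differ in this step was not tested. Their medians were -0.84 for membrane arm, -0.65 for peripheral arm accessory and -0.50 for core subunits, against -0.14 for assembly factors and -0.01 for all genes. The step was not particular to complex I. Of the 11 other complex IV subunits 8 were lower, with a median of -0.89, beside -0.72 over the 35 complex I subunits.

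Examples show the size of this step. NDUFB9 had 278 and 253 CPM at 30 min against 529 and 600 at 15 min, a change of -1.09 ± 0.18 (adjusted p = 0.000316). NDUFS5, a membrane arm subunit on the side of the intermembrane space, had 393 and 389 CPM at 30 min against 749 and 854 at 15 min, a change of -1.04 ± 0.18 (adjusted p = 0.000518). NDUFS6 did not pass, with 115 and 101 CPM at 30 min against 111 and 102 at 15 min (0.02 ± 0.20, adjusted p = 0.984). In 30 of 35 subunits both 30 min cultures lay below both 15 min cultures, as did 25.6% of all genes.

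The count at this step depended on single cultures. It was 7 without culture 2 at 15 min, 9 without culture 1 at 30 min and 4 without culture 2 at 30 min. At 15 min 31 of 35 subunits were higher in culture 2 than in culture 1 (median log2 difference 0.35), where 50.3% of all genes were; its part in the result was not tested. Without culture 2 at 15 min the subunit median was -0.49.

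At 30 against 5 min 25 of the 44 genes passed, all lower, beside 12.4% of all genes in either direction, 6.52% lower and 5.88% higher. They were 22 subunits with NDUFA4, NDUFAF2 and NDUFAF3, and the subunit median was -0.75. By group, 14 of 19 membrane arm, 5 of 8 peripheral arm accessory and 3 of 7 core subunits passed. NDUFB1 changed most among those that passed, with 236 and 207 CPM at 30 min against 596 and 401 at 5 min (-1.16 ± 0.19, adjusted p = 8.1e-05). NDUFAF2 had 91.3 and 89.8 CPM at 30 min against 140 and 154 at 5 min (-0.71 ± 0.21, adjusted p = 0.0223), a call lost without any one culture of these times (-0.63 to -0.77), with no filter on low counts (-0.63) and with scaling by total counts alone (-0.56). The count was 13 without culture 2 at 5 min, 15 without culture 1 at 30 min and 10 without culture 2 at 30 min.

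**Figure D4:**
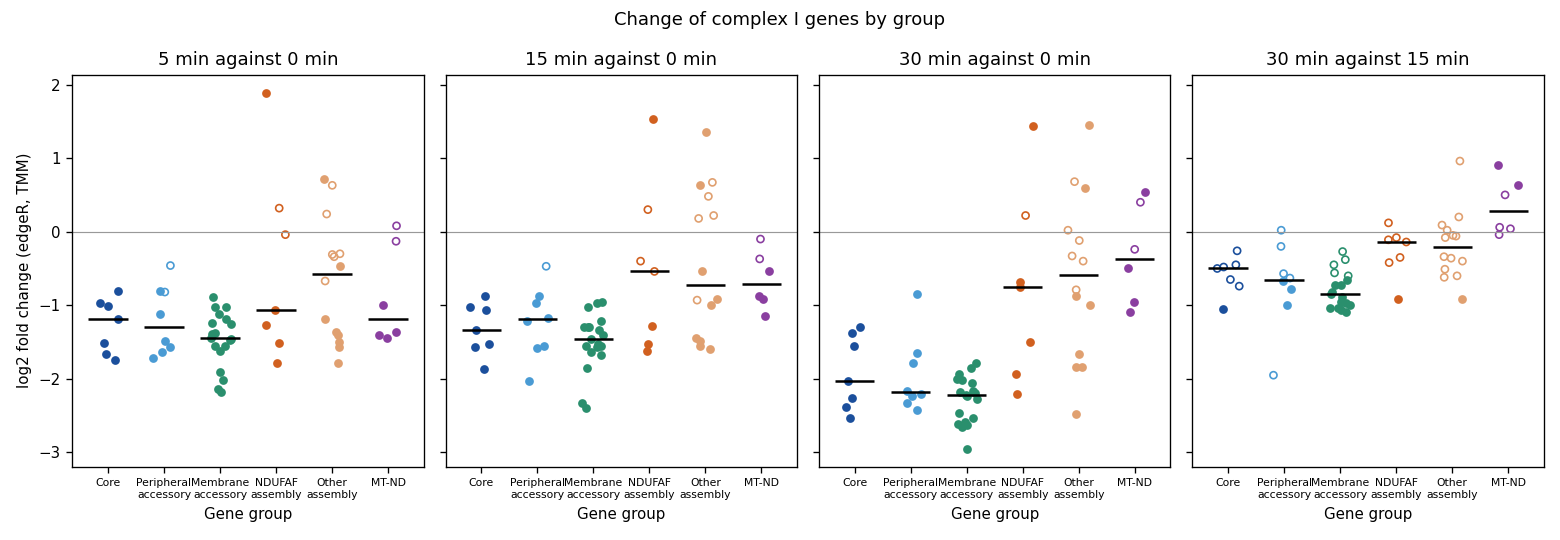
Log2 fold change (vertical axis) of single genes in 4 comparisons, by group: nuclear core, peripheral arm accessory and membrane arm accessory subunits, NDUFAF assembly factors, other complex I assembly factors and mitochondrially encoded subunits (MT-ND). Filled points passed edgeR's test, open ones did not, and bars are medians; subunits form a narrow band against 0 min while assembly factors run from -2.20 to 1.43 at 30 min.

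Assembly factors without an NDUFAF name were as divided. Of 14 such genes 7, 7 and 6 fell and 1, 2 and 2 rose at 5, 15 and 30 against 0 min, with medians of -0.57, -0.73 and -0.60 that turned to 0.17, 0.05 and 0.29 with scaling by total counts alone. That scaling gave 5, 4 and 4 that fell (35.7%, 28.6% and 28.6%) and 2, 6 and 5 that rose (14.3%, 42.9% and 35.7%). Under it 13.9%, 12.5% and 12.8% of all genes were lower and 42.7%, 46.9% and 53.9% higher. Over all genes 26%, 24.6% and 23.8% were lower and 28.7%, 29.8% and 32.1% higher with TMM. TMEM126B, which works with NDUFAF1, had 308 and 263 CPM at 0 min, 73.2 and 91.1 at 5 min, 87.9 and 106 at 15 min, and 53.4 and 49.2 at 30 min, and fell by 2.48 ± 0.21 at 30 min. ECSIT, of the same complex, had 10.9 and 15.4 CPM at 0 min, 17.7 and 21.9 at 5 min, 32.3 and 34.2 at 15 min, and 39 and 32 at 30 min. Its later cultures all lay above 0 min, and it rose at 15 min (1.35 ± 0.44, adjusted p = 0.00909) and 30 min (1.45 ± 0.43, adjusted p = 0.00489), calls lost without culture 1 at 0 min (1.10 and 1.20). NUBPL, which inserts iron-sulphur clusters, rose at all 3 times (0.71 ± 0.25, 0.64 ± 0.24 and 0.59 ± 0.24; adjusted p = 0.0153, 0.0262 and 0.0376), each call being lost without culture 1 at 0 min among others. ACAD9 was at -0.30 ± 0.25, 0.22 ± 0.24 and -0.40 ± 0.25 and did not pass, but with scaling by total counts alone it was higher at 15 min (0.99), and with RLE size factors it was lower at 30 min (-0.58).

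Among the regulators of nuclear respiratory genes, 2, 2 and 2 of 9 fell and 3, 3 and 4 rose at 5, 15 and 30 against 0 min, or 22.2% lower and 33.3% higher at 5 min, near the 26% and 28.7% of all genes. Under total counts alone 0, 1 and 0 fell and 4, 4 and 4 rose. Of all genes 13.9%, 12.5% and 12.8% were lower and 42.7%, 46.9% and 53.9% higher under that scaling. NRF1 had 54.4 and 9.27 CPM at 0 min, 137 and 171 at 5 min, 151 and 152 at 15 min, and 147 and 128 at 30 min. It rose by 2.19 ± 0.32, 2.16 ± 0.32 and 2.02 ± 0.32 on the log2 scale, and by 1.51, 1.48 and 1.34 without culture 2 at 0 min. TFAM, which packages mitochondrial DNA and starts its transcription, had 311 and 244 CPM at 0 min, 119 and 131 at 5 min, 145 and 124 at 15 min, and 145 and 166 at 30 min, and fell at all 3 times (-1.15 ± 0.20, -1.04 ± 0.19 and -0.84 ± 0.19), calls that were lost with scaling by total counts alone (-0.42, -0.27 and 0.03). Assembly factors of complexes III and IV also held genes that fell and genes that rose, but complex IV factors fell more often than all genes. Of these 19 factors 12, 12 and 11 fell at 5, 15 and 30 min (63.2%, 63.2% and 57.9%), beside 26%, 24.6% and 23.8% of all genes. At each time 3 rose (15.8%), beside 28.7%, 29.8% and 32.1% of all genes. Under total counts alone 9, 6 and 9 fell (47.4%, 31.6% and 47.4%) and 3, 5 and 6 rose. Of 5 complex III factors 2 fell and 1 rose at each time, beside 26% lower and 28.7% higher over all genes at 5 min, and 2 fell and 2 rose at each time under total counts alone.

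Gene structure differed between the groups. Subunit genes spanned a median of 11.7 kb (2.35 to 133 kb) in RefSeq GRCh38.p14 and assembly factor genes 36.6 kb (3.04 to 223 kb), where 9051 protein-coding genes tested had a median of 36.5 kb. In order of span the assembly factors were NDUFAF3 (3.04 kb), NDUFAF4 (8.58 kb), NDUFAF1 (15.7 kb), NDUFAF5 (36.6 kb), NDUFAF7 (39.7 kb), NDUFAF2 (208 kb) and NDUFAF6 (223 kb). Spearman's rho between span and log2 fold change was 0.86 over the 7 factors at each later time against 0 min, and 0.57, 0.52 and 0.43 over all protein-coding genes at 5, 15 and 30 min. Over the 35 subunits it was -0.04, -0.15 and -0.00. NDUFA10 (133 kb) and NDUFS4 (123 kb), long subunit genes, fell by 1.24 ± 0.25 and 0.81 ± 0.20 at 5 min, calls lost with scaling by total counts alone (-0.52 and -0.08). These coefficients describe genes counted in the same 8 cultures, with the same 0 min cultures in each, and carry no test.

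Transcript length went with the second step. Subunit transcripts had a median of 844 spliced bases (417 to 4915), assembly factors 2012 (719 to 5529) and 9355 protein-coding genes 3048. At 30 against 15 min rho between spliced length and log2 fold change was 0.66 over 35 subunits, that is, shorter transcripts had lower values, and 0.13 over all protein-coding genes. NDUFB1, the shortest at 417 bases, was at -0.89 ± 0.19, and NDUFA10, the longest at 4915 bases, at -0.45 ± 0.25. Subunits with higher 0 min levels also had lower values at this step (rho = -0.38), and these relations were not separated. Against 0 min rho with spliced length over subunits was -0.07, -0.18 and 0.25 at 5, 15 and 30 min. At 15 against 5 min it had the other sign, -0.43, and at 30 against 5 min it was 0.46. The coefficients at 15 against 5 and at 30 against 15 min share the 15 min cultures, and none of them was tested.

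**Figure D5:**
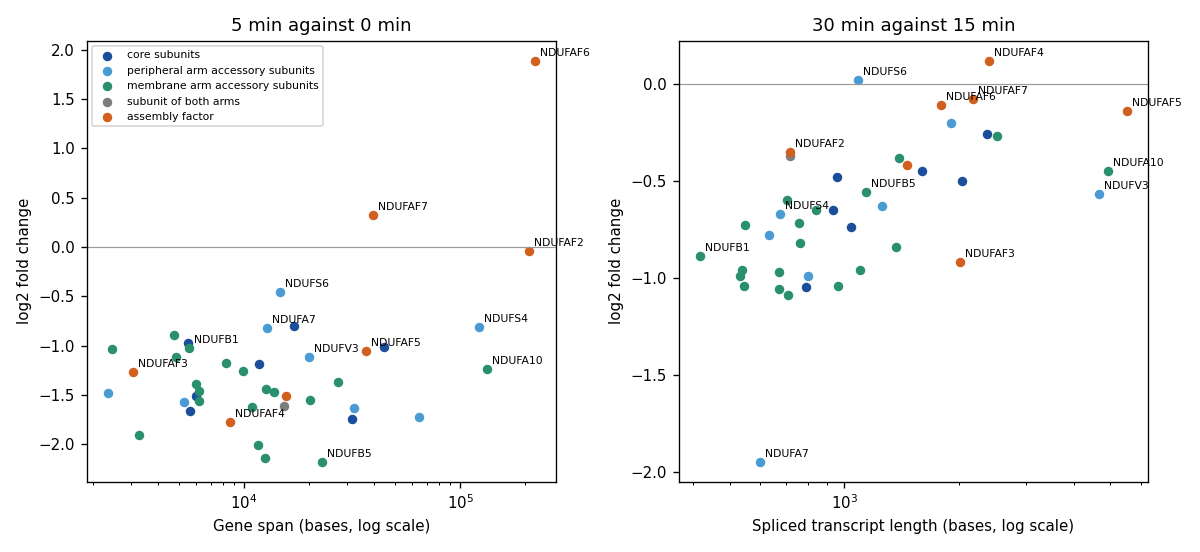
Log2 fold change (vertical axis) of subunits and assembly factors against gene span at 5 against 0 min (left) and against spliced transcript length at 30 against 15 min (right); both horizontal axes are in bases on a log scale and points are genes coloured by role. The assembly factors climb with span while with TMM scaling subunits of up to 133 kb stay below 0, and on the right the values rise with length.

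NDUFB2-AS1 is transcribed opposite to NDUFB2. It had 0 and 2 counts at 0 min, 4 and 3 at 5 min, 22 and 17 at 15 min, and 9 and 5 at 30 min. At 15 against 0 min the ratio of its share of counts was 16.2 (exact 95% interval 4.21 to 139). That interval covers counting error only, takes all counts as independent and can be too narrow. The gene passed edgeR's test (adjusted p = 0.0162), a call lost without culture 1 at 0 min or culture 1 at 15 min. Of its 62 counts 39 came from the 15 min cultures, and without these it would fall under the minimum of summed counts. The ratio and the test at 15 against 0 min thus rest on the counts that selected the gene. They cannot show a rise apart from that choice. NDUFB2 had 586 and 746 CPM at 15 min against 1409 and 1681 at 0 min and fell (-1.21 ± 0.18). Whether counting used strand is unknown here, so the partners cannot be told apart. Genes that fell overlap others too. On the opposite strand these include NDUFAF3 (DALRD3), NDUFA7 (RPS28), NDUFB11 (RBM10) and NDUFA2 (IK and TMCO6). On the same strand they include NDUFC2 (NDUFC2-KCTD14) and NDUFS3 (PTPMT1), and the part of such overlaps in the values was not tested. Several subunits have named pseudogenes, with 12 each for NDUFB4 and NDUFA5 in the annotation, and reads shared with such copies would make their values uncertain.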

How the data were processed

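The data are raw counts per gene of 32 libraries in 1 table, deposited by the authors. Per the submitters' processing notes, STAR was the aligner and hg19 the build. The STAR version, the use of strand and the kind of count (reads or molecules) are not stated in these sources. For 4 libraries of the second 0 min culture the tagmentation numbers in header and labels disagree, and the sums used do not depend on them. Libraries made from the same cDNA (16 pairs) varied less than sampling noise allows for (chi-square 0.327 to 0.594 per degree of freedom), so their counts are not independent. Libraries from different cDNA of 1 culture (32 pairs) gave 1.14 to 2.29. The 4 libraries of a culture are technical repeats and were summed. Counting intervals cover counting error only and take the summed counts as independent, so they can be too narrow.

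Tests of the 8 cultures used edgeR (version 4.0.16, R 4.3.3): TMM scaling, filterByExpr (10439 genes), 1 quasi-likelihood fit over 4 times with 4 residual degrees of freedom, two-sided F tests and Benjamini-Hochberg adjustment over all genes tested, with a threshold of 0.05. The common dispersion of 0.0235 is a coefficient of variation of 15.3%. Log2 fold changes carry a standard error computed as their size over the root of F. The labels do not say whether cultures were grown separately, so p-values measure the spread between these samples. Levels are CPM of the TMM-scaled total. The fit was also run on simulated data in which few genes changed, in both directions, at 5 against 0 min. In these data 54.7% of genes were called in that comparison, so the simulation is no check of the scaling.

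The genes and lists were chosen with earlier results of these data known. Named genes are the 7 core subunits, all NDUFAF genes, the 4 lowest and 4 highest changes against 0 min at each time, those called against the majority, NDUFA4, NDUFAB1 and all called between later times. Genes of the added lists were chosen for the text after their values were seen. Alternatives were RLE size factors, total counts only, no filter, DESeq2 1.42.0, a replicate block, a fit of only the 2 times compared, 1 library per cDNA and leaving out each of 8 cultures. Spans and promoters are from RefSeq GRCh38.p14 and spliced lengths from principal transcripts of GENCODE 29 (the middle one by length), all of another build than the counts; they were joined by symbol, for 44 of 44 genes, NDUFA4 under its RefSeq name COXFA4. Complex II genes were not used here, and 1 core subunit enters the counts and medians but is not reported here by itself.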

Additional observations from a re-analysis of the deposited data

How the results depend on the processing

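Counts of falling subunits stayed within 1.5 times under all alternatives. With scaling by total counts alone they were 23, 23 and 32 at 5, 15 and 30 min, where TMM gave 33, 34 and 35. The subunit medians also moved under that scaling, to -0.70, -0.63 and -1.30. With scaling by total counts alone, 2 and 3 assembly factors fell at 5 and 30 against 0 min, their median turned to 0.24 at 15 min and 0.13 at 30 min, and NDUFAF2 turned to 0.69 at 5 min and 0.13 at 30 min, NDUFAF5 to 0.20 and NDUFS6 to 0.03 at 30 min. With 1 library per cDNA the assembly factor share at 5 min was 0.101%. Leaving out 1 culture gave 4 to 22 genes at 30 against 15 min and 10 to 26 at 30 against 5 min; where an arm keeps 1 culture, it is assumed to vary like the others.

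The replicate numbers do not pair the cultures (correlation of replicate differences between times -0.0324 to 0.0809). With the replicate block 33, 34 and 35 subunits and 4, 3 and 5 assembly factors fell against 0 min, and 19 and 24 genes passed at 30 against 15 and 30 against 5 min. Over single genes and all alternatives 2005 values stayed on their side of the threshold (many on the side that does not pass), 52 no longer passed, 9 newly passed and 4 turned. This tally covers the comparisons against 0 min, and those between later times only for NDUFAF2 and NDUFAF3. The other calls between later times, whose number depended on single cultures, are not in it. Depth limits genes such as NDUFA7, with 57 counts in all, to large changes.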
